A study of Mus musculus with 6 samples.

Results

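The genes described here are 10 products ascribed to Paneth cells, namely Ang4, Itln1, Lyz1, Defa17, Defa24, Pla2g2f, Mptx2, Habp2, Nupr1 and Guca2b. They were chosen by symbol, with earlier results of these data known, and all 10 had a row among the 46078 genes of the count tables. RNA was sequenced from small intestinal adenomas of 18-week-old C57BL6/SV129 mice, each library from 3 pooled tumors of 1 mouse. The knockout group (miR-34a/b/c-/-;ApcMin/+) and the wild-type group (miR-34a/b/c+/+;ApcMin/+) had 3 mice each, so both carried ApcMin, the truncating Apc allele that gives rise to intestinal polyps. The sources used here do not give the position of the tumors along the small intestine, the sex of the mice or the batch of the libraries. The comparison addresses how transcripts of these adenomas differ when the 3 microRNAs are missing.

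Paneth cells sit at the base of small intestinal crypts, between the stem cells, and fill large granules with antimicrobial proteins. Their maturation depends on Wnt signalling and on the transcription factor Sox9, and they supply neighbouring stem cells with growth factors and Notch ligands. The α-defensins are made as precursors and cut to the active peptide in mouse granules by the protease Mmp7. Lyz1 encodes the lysozyme of these granules, Ang4 an antimicrobial ribonuclease, Itln1 a lectin that binds microbial sugars, Pla2g2f a secreted phospholipase A2 and Mptx2 a mucosal pentraxin. The label does not describe every member equally well, since Nupr1 encodes a nuclear stress-response protein, Guca2b encodes uroguanylin, which is made mainly by other epithelial cells, and Habp2 encodes a protease known from plasma. Bulk RNA cannot show which cells held the transcripts, and fewer cells of a type and less RNA per cell cannot be told apart.

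The microRNAs that the knockout mice lack share a seed, the bases 2 to 8 that pair with target transcripts, shown in capitals for miR-34a-5p and miR-34b-5p (RefSeq, GRCm38.p6).
miR-34a-5p: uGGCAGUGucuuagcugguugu
miR-34b-5p: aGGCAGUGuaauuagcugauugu
The mature miR-34a-5p lies on the plus strand at chr4:150068473-150068494 and miR-34b-5p on the minus strand at chr9:51103610-51103632. The precursor genes Mir34a, Mir34b and Mir34c had 0 counts in all 6 libraries of both genotypes, so these counts cannot check the genotype labels.
None of the 10 members had a match to this seed (CACTGCC, or ACTGCCA) in its longest annotated 3′ UTR, which ranged from 79 bases in Mptx2 to 1679 bases in Pla2g2f. Such a match was present in 22.8% of the 14694 tested genes with an annotated 3′ UTR. That share was not matched for length. Several members had windows near the lower end of the range, such as Defa17 and Defa24 (94 bases each) and Itln1 (119 bases). The absence of a match describes these letters in these windows only.

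The 6 libraries held 26375035 to 38354355 counts each, of which 2.31% to 4.18% were mitochondrial. Epithelial markers were high in every library, with summed levels of 11562 to 14867 CPM (the usual depth-scaled counts, here on TMM-normalized library sizes) in the knockout and 12619 to 16965 CPM in the wild-type libraries. Of 5 ileal markers Fabp6 was at or below 0.342 CPM in every library and Fgf15 was at 0 counts in 4 of the 6, while Slc10a2 reached 1.94 CPM, Slc51b 7.47 CPM and Slc51a 68.3 CPM. The 10 members together took 0.188%, 0.103% and 0.268% of all counts in knockout replicates 1, 2 and 3, and 0.104%, 0.0757% and 0.110% in the wild-type replicates. The 95% Wilson interval of the largest share ran from 0.266% to 0.269%. Such intervals, like the limits given for counts of 0, hold counting error alone, as PCR copies were not told apart by molecular identifiers. Lyz1 made up between 29.9% and 53.5% of the member counts.

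Of the 17254 genes tested, 16 (0.0927%) passed an adjusted p below 0.05 by edgeR's quasi-likelihood test, and 0 of the 10 members did. Of the genes tested 0.0406% were called higher in knockout tumors. All 10 members passed the low-count filter, and 3 of them, Ang4, Itln1 and Lyz1, had an unadjusted p below 0.05. These 3 were higher in knockout tumors, as were 3.27% of the genes tested at that p, while 5.85% reached it in either direction. The same 3 were also the members whose knockout libraries all lay above all wild-type libraries, as did those of 5.86% of the genes tested. DESeq2 called 1 member, Ang4, higher in knockout tumors, out of 0.301% of its genes called higher and 0.777% called in either direction. The fitted log2 fold changes were above 0 for 10 of 10 members with a median of 0.39, and above 0 for 51.1% of all genes tested with a median of 0.01. The members were chosen with earlier results of these data known, so this contrast describes them and is not a test. Leaving out Ang4, Itln1 and Lyz1, the median of the other 7 members was 0.23. The median over 10 members was 0.16 without knockout replicate 3 and 0.73 without knockout replicate 2.

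**Figure D1:**
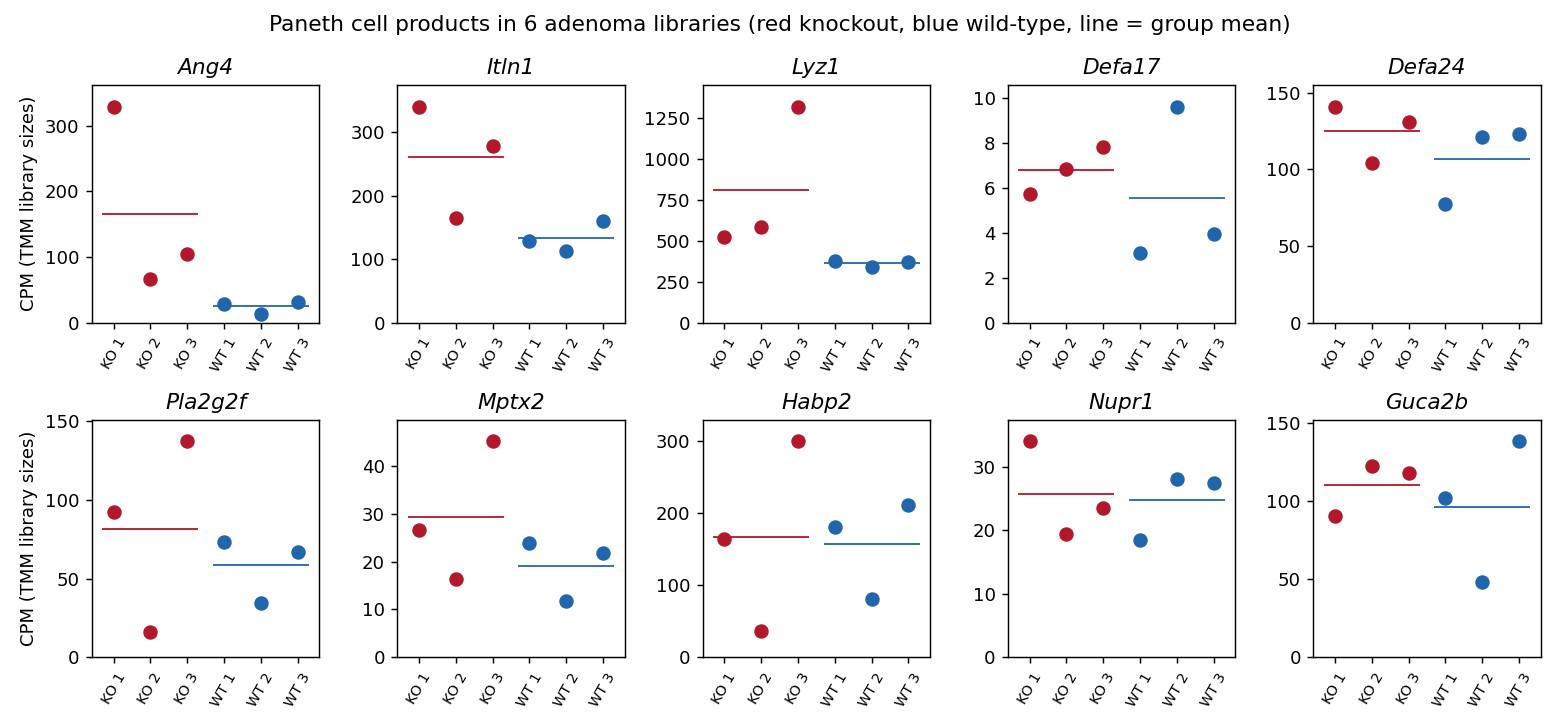
Level of each of the 10 genes (vertical axis, CPM from 0, a separate scale per gene) in the 3 knockout (KO, red) and 3 wild-type (WT, blue) libraries, with the group mean as a line. The knockout libraries lie above all wild-type libraries for Ang4, Itln1 and Lyz1, and the groups overlap for the other 7 genes.

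Ang4 (ENSMUSG00000060615, mm10 chromosome 14, 51763878 to 51773590), the antimicrobial ribonuclease, showed the widest gap between the groups. Its level was 329, 66.0 and 104 CPM in knockout replicates 1, 2 and 3, and 29.1, 13.9 and 32.2 CPM in wild-type replicates 1, 2 and 3. The lowest knockout library was 2.05 times the highest wild-type library, but the knockout libraries themselves spanned 4.99-fold. Knockout tumors averaged 166 ± 142 CPM and wild-type tumors 25.1 ± 9.80 CPM (SD, n = 3 mice per genotype). The fitted log2 fold change was 2.73 ± 0.65 (SE) with an adjusted p of 0.762 by edgeR. With DESeq2 the log2 fold change was also 2.73, and its adjusted p of 0.000402 was the lowest over the 12 alternatives, which reached 1.0. The value rested strongly on knockout replicate 1, the library with the highest level, and fell to 1.75 without it (adjusted p = 0.903, edgeR). Ang4 had no copy at 95% identity or more, and its nearest relative, Ang5, was 88.9% identical over 696 bases and had 1 count over the 6 libraries.

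Itln1 (ENSMUSG00000038209, chromosome 1, 171518122 to 171535294), an intelectin found in Paneth and goblet cell granules, was separated only narrowly. It stood at 340, 164 and 278 CPM in the knockout libraries and 128, 113 and 160 CPM in the wild-type libraries. Knockout replicate 2 was 1.02 times wild-type replicate 3, so the absence of overlap rests on a gap within the spread of either group. The log2 fold change was 0.97 ± 0.28 (SE, adjusted p = 0.793, edgeR), and it ranged from 0.72 to 1.21 over the 12 alternatives. Its nearest relative, Gm9765, was 92.8% identical over 320 bases and had 9 counts over the 6 libraries. Itln2 was sought but had no row under that symbol in the count tables, so its level cannot be given.

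Lyz1 (ENSMUSG00000069515, chromosome 10, 117287796 to 117292868), Paneth cell lysozyme, had the highest mean level per length of the 10 members in both groups. Its level was 521, 581 and 1318 CPM in the knockout libraries and 379, 338 and 369 CPM in the wild-type libraries. The wild-type libraries spanned only 1.12-fold, and the lowest knockout library was 1.37 times the highest of them. The log2 fold change was 1.16 ± 0.36 (SE, adjusted p = 0.793, edgeR), and it was 0.60 without knockout replicate 3. The knockout libraries spanned 2.53-fold, with replicate 3 well above the others. The neighbouring gene Lyz2, the lysozyme of macrophages, is 95.8% identical to Lyz1 over 1264 bases of transcript, and the sources used here do not say how reads that fit both were counted. The coding sequences differ at 22 of 447 bases. Bases 1 to 240 of the Lyz1 coding sequence (GENCODE M21, GRCm38) are shown because most of the differences lie there, and capitals mark the bases that differ from Lyz2.
Lyz1: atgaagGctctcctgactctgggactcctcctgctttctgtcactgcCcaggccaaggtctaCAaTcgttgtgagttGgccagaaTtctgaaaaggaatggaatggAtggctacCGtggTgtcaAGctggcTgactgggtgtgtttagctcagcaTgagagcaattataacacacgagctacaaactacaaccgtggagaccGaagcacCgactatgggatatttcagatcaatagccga
Lyz2 had 58.7, 42.5 and 75.1 CPM in the knockout and 35.4, 58.4 and 70.2 CPM in the wild-type libraries. Lyz2 therefore overlapped between the groups, and in every library it was below Lyz1.

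Defa24 and Defa17 are α-defensins of the cluster on chromosome 8 (Defa24, ENSMUSG00000064213, 21734494 to 21735471, and Defa17, ENSMUSG00000060208, 21655780 to 21656735). Both overlapped between the groups. Defa24 had 141, 104 and 131 CPM in the knockout and 77.1, 121 and 123 CPM in the wild-type libraries, the smallest range of the 10 members at 1.83-fold. Its log2 fold change was 0.23 ± 0.21 (SE, adjusted p = 0.830, edgeR). Defa17 had 5.71, 6.83 and 7.80 CPM in the knockout and 3.11, 9.60 and 3.92 CPM in the wild-type libraries, and wild-type replicates held both its lowest and its highest level. Its log2 fold change was 0.29 ± 0.44 (SE, adjusted p = 0.886, edgeR). Omitting wild-type replicate 2 gave 0.95 for Defa17 and omitting wild-type replicate 1 gave 0.00, while for Defa24 omitting wild-type replicate 1 gave 0.03.

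The cluster holds near-identical genes, so single α-defensins are uncertain. Defa17 had 6 other genes at 95% identity or more over at least 100 bases and Defa24 had 5. The coding sequences below show how little separates members of the family. Each is 282 bases long and reads from the start codon to the stop codon (GENCODE M21, GRCm38), and capitals mark the bases that differ from Defa24. Defa17 and Defa23 each match Defa24 at 95.7% of positions, Defa30 at 98.6% and Defa35 at 84.0%. All 5 hold 6 cysteine codons in frame, the residues that form the disulfide bonds of the peptide. Defa3, not shown, has the same coding sequence as Defa17, and Defa31 the same as Defa23. Coding bases therefore cannot tell these pairs apart. Over the 6 libraries Defa3 had 32 counts and Defa31 had 4.
Defa24: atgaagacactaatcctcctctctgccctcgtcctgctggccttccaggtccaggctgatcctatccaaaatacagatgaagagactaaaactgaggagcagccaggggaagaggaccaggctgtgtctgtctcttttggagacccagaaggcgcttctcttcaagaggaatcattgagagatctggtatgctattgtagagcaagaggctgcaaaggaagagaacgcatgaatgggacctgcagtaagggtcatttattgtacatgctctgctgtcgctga
Defa30: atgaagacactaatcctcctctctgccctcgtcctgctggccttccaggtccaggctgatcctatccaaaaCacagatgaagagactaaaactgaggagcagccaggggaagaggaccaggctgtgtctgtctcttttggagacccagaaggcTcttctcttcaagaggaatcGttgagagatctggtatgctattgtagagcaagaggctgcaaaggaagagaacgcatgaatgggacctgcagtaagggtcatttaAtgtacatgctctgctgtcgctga
Defa17: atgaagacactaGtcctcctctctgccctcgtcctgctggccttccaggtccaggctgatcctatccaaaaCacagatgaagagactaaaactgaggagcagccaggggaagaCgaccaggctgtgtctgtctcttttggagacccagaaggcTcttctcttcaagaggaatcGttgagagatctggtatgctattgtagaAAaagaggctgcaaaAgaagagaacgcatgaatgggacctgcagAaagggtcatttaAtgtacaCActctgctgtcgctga
Defa23: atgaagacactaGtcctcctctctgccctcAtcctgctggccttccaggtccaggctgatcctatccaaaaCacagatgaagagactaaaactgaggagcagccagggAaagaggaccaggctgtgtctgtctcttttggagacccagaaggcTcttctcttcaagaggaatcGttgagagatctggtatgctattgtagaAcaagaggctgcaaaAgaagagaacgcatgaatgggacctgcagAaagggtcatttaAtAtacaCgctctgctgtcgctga
Defa35: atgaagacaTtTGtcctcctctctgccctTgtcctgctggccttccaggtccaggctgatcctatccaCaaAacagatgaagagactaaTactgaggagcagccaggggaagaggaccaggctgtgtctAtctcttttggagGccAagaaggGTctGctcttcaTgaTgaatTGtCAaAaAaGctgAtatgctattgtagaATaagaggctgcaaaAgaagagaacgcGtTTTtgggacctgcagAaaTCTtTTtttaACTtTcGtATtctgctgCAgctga

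The tables held 39 genes whose symbol starts with Defa, pseudogenes included, and these are the α-defensins counted here unless relatives are named. Of these 16 had 0 counts in all libraries and 13 were tested. None of the 13 passed the threshold in either direction by edgeR, 0 had an unadjusted p below 0.05, 8 had a log2 fold change above 0 and 5 below, and the median was 0.09. Among all genes tested 0.0927% passed, 5.85% had an unadjusted p below 0.05 by edgeR and 51.1% lay above 0. Defa24 alone took between 64.6% and 71.9% of the counts of these 39 genes. Their summed level was 196, 161 and 196 CPM in the knockout and 110, 187 and 186 CPM in the wild-type libraries, lowest in wild-type replicate 1. Defa30, the next in level, had 27.0, 21.3 and 16.5 CPM against 8.48, 25.2 and 22.6 CPM. Defa29 had 3.45, 11.2 and 10.5 CPM against 8.20, 7.80 and 13.5 CPM. Defa26, the family member with the smallest unadjusted p, had at most 0.916 CPM.

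Chromosome 8 also held expressed relatives whose symbols lack the Defa prefix. The 4 given here were chosen after their values were seen, and there may be others. RefSeq (GRCm38.p6) lists Gm14851, Gm15292 and Gm15293 under Defa symbols. AY761184 had 5.92, 6.41 and 3.48 CPM in the knockout and 2.61, 17.4 and 10.6 CPM in the wild-type libraries, highest in wild-type replicate 2. Gm14851 had 3.35, 3.60 and 0.336 CPM against 0.249, 8.59 and 4.62 CPM, lowest in the mice of wild-type replicate 1 and knockout replicate 3. Gm15293 had 4.97, 4.85 and 15.3 CPM against 4.97, 6.80 and 7.36 CPM, and was highest in knockout replicate 3. The knockout libraries of Gm15292 (1.62, 1.29 and 2.66 CPM) all lay above its wild-type libraries (0.652, 0.755 and 0.980 CPM). The same held for 5.86% of the genes tested. Its log2 difference was 1.22 (unadjusted p = 0.014, adjusted p = 0.793, edgeR). Unlike the tested genes with the Defa prefix, it thus had an unadjusted p below 0.05. With these 4 genes the Defa sum was 212, 177 and 217 CPM in the knockout and 118, 221 and 210 CPM in wild-type libraries. The share of Defa24 in that sum ran from 54.9% to 66.5%.

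Several α-defensins were present in some mice and at 0 in others, in a pattern that crossed the genotypes. Defa23 had 115, 76 and 0 counts in the knockout and 0, 218 and 113 counts in the wild-type libraries. Defa21 had 13, 38 and 0 counts against 0, 77 and 53, and Defa20 had 18, 41 and 0 against 1, 87 and 78. Defa34 had 12, 19 and 0 counts against 0, 25 and 30, and Defa32 had 5, 5 and 0 against 0, 6 and 12. All 5 genes thus had at most 1 count in knockout replicate 3 and wild-type replicate 1 and at least 5 counts in each of the other 4 libraries. At this depth a gene at 0 could still have had a level of up to 3 counts, equal to 0.0782 CPM of the total in knockout replicate 3 and 0.0957 CPM in wild-type replicate 1.

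A pair of genes showed another arrangement. Defa27 had 43, 37 and 246 counts in the knockout and 71, 0 and 104 counts in the wild-type libraries. Defa35 had 126, 112 and 620 counts against 209, 5 and 164. Both were lowest in wild-type replicate 2 and highest in knockout replicate 3. Defa24, Defa30, Defa29, Defa17, Defa37, Defa22 and Defa26 had at least 5 counts in each library, as did the 4 relatives and, just at that number in wild-type replicate 2, Defa35. Of the 39 genes 9 reached 5 counts in knockout replicate 3 and in wild-type replicate 1, and 14 or 15 did in the other libraries. With the 4 relatives these numbers were 13, and 18 or 19. These genes were singled out after their values were seen, and no test was made. The labels give the strain as the mixture C57BL6/SV129 for all 6 mice, and its part in the pattern was not tested.

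**Figure D2:**
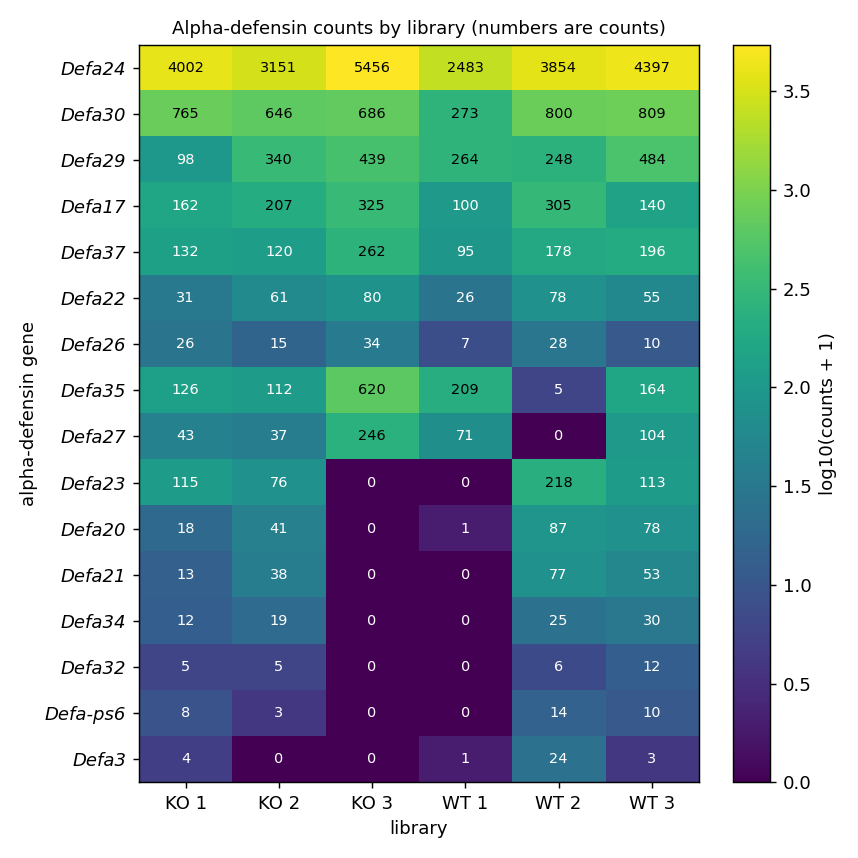
Counts of the α-defensin genes with at least 20 counts over the 6 libraries (rows) in each library (columns, KO knockout, WT wild-type), with colour on a log10(counts + 1) scale and the count written in each cell. Defa23, Defa20, Defa21, Defa34 and Defa32 have at most 1 count in knockout replicate 3 and wild-type replicate 1, and Defa35 and Defa27 have 5 and 0 counts in wild-type replicate 2.

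Pla2g2f (ENSMUSG00000028749, chromosome 4, 138750533 to 138757626), the secreted phospholipase, varied more between mice of 1 genotype than between genotypes. It had 92.1, 16.0 and 137 CPM in the knockout and 73.4, 34.4 and 67.1 CPM in the wild-type libraries, an 8.56-fold range within the knockout group. The log2 fold change was 0.49 ± 0.69 (SE, adjusted p = 0.880, edgeR) and -0.13 without knockout replicate 3. Pla2g2a, the Paneth cell phospholipase of the same cluster and the known Mom1 modifier of ApcMin polyp number, had 308, 120 and 308 CPM against 259, 196 and 186 CPM. It too was lowest in knockout replicate 2.

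Habp2 (ENSMUSG00000025075, chromosome 19, 56287137 to 56320822), the hyaluronan-binding protease, was lowest and highest in the same mice as Pla2g2f. It had 164, 36.2 and 300 CPM in the knockout and 181, 80.4 and 212 CPM in the wild-type libraries. Its log2 fold change was 0.08 ± 0.70 (SE, adjusted p = 0.983, edgeR), and it turned to -0.68 with knockout replicate 3 omitted and -0.24 with wild-type replicate 2 omitted, as well as to -0.26 in a fit that blocks on replicate number. Exons of Habp2 overlap those of Nrap on the opposite strand. Nrap had 617 counts over the 6 libraries against 34202 for Habp2, and whether counting used strand is not stated in the sources used here.

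Mptx2 (ENSMUSG00000079180, chromosome 1, 173274382 to 173277777), the pentraxin, had 26.5, 16.3 and 45.1 CPM in the knockout and 23.9, 11.7 and 21.8 CPM in the wild-type libraries. Within each group replicate 2 was the lowest, and the groups overlapped. The log2 fold change was 0.62 ± 0.41 (SE, adjusted p = 0.810, edgeR) and 0.15 without knockout replicate 3. Its relative Mptx1, 92.3% identical over 795 bases, had 118 counts over the 6 libraries, of which 98 were in knockout replicate 1.

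Nupr1 (ENSMUSG00000030717, chromosome 7, 126623249 to 126630861), the stress-response protein, had 34.0, 19.4 and 23.5 CPM in the knockout and 18.5, 28.1 and 27.5 CPM in the wild-type libraries. Its fitted log2 difference, 0.06 ± 0.25 (SE, adjusted p = 0.967, edgeR), was the smallest of the 10, and its sign changed without knockout replicate 1 (-0.21) or wild-type replicate 1 (-0.13). Guca2b (ENSMUSG00000032978, chromosome 4, 119656607 to 119658954), uroguanylin, had 90.0, 122 and 118 CPM against 102, 48.4 and 138 CPM. Its lowest and highest levels were both in wild-type mice, and the log2 fold change was 0.20 ± 0.36 (SE, adjusted p = 0.907, edgeR), or -0.13 without wild-type replicate 2.

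**Figure D3:**
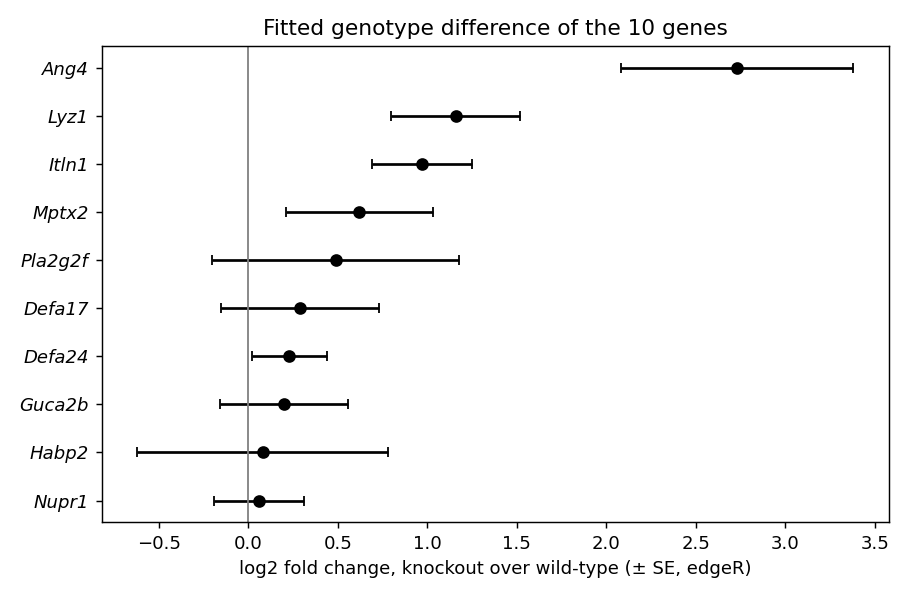
Fitted log2 fold change of each member, knockout over wild-type (horizontal axis), with its standard error from edgeR's quasi-likelihood fit on 3 against 3 libraries. Ang4, Lyz1 and Itln1 have the largest values (2.73, 1.16 and 0.97), and none of the 10 passed an adjusted p below 0.05.

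Levels of different genes can be compared only per length, so CPM were divided by the exon length in kilobases. In wild-type tumors Lyz1 (287 CPM per kb) and Defa24 (256 CPM per kb) stood highest, followed by Itln1 (117) and Guca2b (111 CPM per kb). Habp2 (49.5), Ang4 (35.3), Mptx2 (24.1), Pla2g2f (23.6), Defa17 (14.0) and Nupr1 (9.82 CPM per kb) were lower. In knockout tumors Lyz1 had 639, Defa24 299, Ang4 235 and Itln1 228 CPM per kb. Between libraries the knockout values of Ang4 ran from 93.0 to 465 CPM per kb and those of Itln1 from 143 to 298 CPM per kb, so these neighbours were not separated. In wild-type tumors Lyz1 (267 to 300 CPM per kb) and Defa24 (184 to 294 CPM per kb) overlapped as well. From Itln1 down to Nupr1 each gene of the wild-type order also overlapped the next. Only Defa24 was separated from the gene below it, Itln1 (98.7 to 140 CPM per kb).

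The members did not share a single order of mice. Knockout replicate 1 held the highest level of 4 members (Ang4, Itln1, Defa24 and Nupr1), and knockout replicate 3 that of another 4 (Lyz1, Pla2g2f, Mptx2 and Habp2). Wild-type replicate 2 held the lowest level of 5 members (Ang4, Itln1, Lyz1, Mptx2 and Guca2b) but the highest of Defa17. Knockout replicate 2 was highest for 0 members and lowest for Pla2g2f and Habp2. Some other crypt genes were low in knockout replicate 2 as well, and some were not. Sox9, the factor needed for Paneth cells to form, had 264, 90.5 and 334 CPM in the knockout and 230, 190 and 207 CPM in the wild-type libraries. Ephb3, the receptor that keeps Paneth cells at the crypt base, had 177, 77.7 and 206 CPM against 163, 102 and 112 CPM. The stem cell marker Lgr5, chosen after its values were seen, had 103, 20.8 and 141 CPM against 88.3, 37.7 and 80.4 CPM. Other genes of the same lists, also chosen after their values were seen, had their highest knockout level in replicate 2, among them Olfm4 (47.8, 142 and 89.4 CPM), Atoh1 (10.6, 18.0 and 11.5 CPM) and Fzd5 (83.7, 149 and 88.8 CPM).

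Some genes of the proximal small intestine had their highest level in knockout replicate 2, where Pla2g2f and Habp2 were lowest. Cybrd1, the duodenal iron reductase, had 562, 3571 and 101 CPM in the knockout and 378, 3219 and 1467 CPM in the wild-type libraries, high in replicate 2 of both groups. The summed level of the 6 proximal markers was 2038 to 7388 CPM in knockout and 2801 to 6436 CPM in wild-type libraries, with no marker at 0. Of these 6, Cybrd1, Slc40a1 and Gata4 were highest in knockout replicate 2, Onecut2 in wild-type replicate 2, and Rbp2 and Fabp1 in wild-type replicate 3. The 10 enterocyte markers summed to 6464, 15859 and 7949 CPM against 8536, 8842 and 13406 CPM, highest in knockout replicate 2. Alpi alone had 5249 CPM there. Sis, Slc5a1 and Slc2a2 were also highest in knockout replicate 2, and Guca2a was highest in knockout replicate 3. Apoa1, Apoa4, Fabp2, Lct and Anpep were highest in wild-type replicate 3. The 7 stem cell markers summed to 994, 661 and 1187 CPM against 996, 690 and 855 CPM, lowest in replicate 2 of each group. The part of these differences in the levels of the 10 members was not tested.

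**Figure D4:**
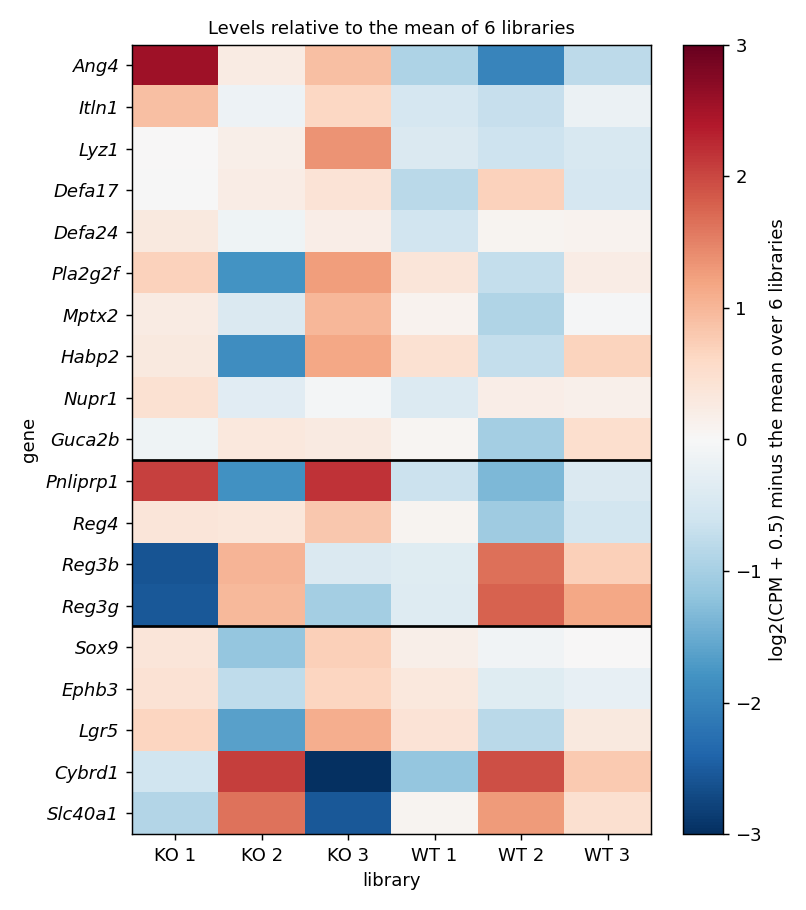
Level of each gene (rows) in each library (columns, KO knockout, WT wild-type) as log2(CPM + 0.5) minus its mean over the 6 libraries. The upper block holds the 10 members, the middle block 4 other Paneth cell secretory genes and the lower block Sox9, Ephb3, Lgr5, Cybrd1 and Slc40a1. Pla2g2f and Habp2 are lowest in knockout replicate 2, where Lgr5 is lowest and Cybrd1 is highest. The lower block is a choice from the marker lists, made in part after the values were seen. Olfm4, Atoh1 and Fzd5, not drawn, had their highest knockout level in replicate 2. Rbp2 and Fabp1, not drawn, were highest in wild-type replicate 3.

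Other Paneth cell secretory genes gave a mixed picture. Of 17 listed genes 15 had a row and 12 were tested, and 0 passed in either direction by edgeR. There were 7 above and 5 below 0 with a median log2 fold change of 0.11, and 2 had an unadjusted p below 0.05, Reg4 and Pnliprp1. Reg4, a secreted lectin of the Reg family, had 435, 427 and 592 CPM in the knockout and 357, 160 and 228 CPM in the wild-type libraries, the only gene of this list whose groups did not overlap. Its log2 fold change was 0.97 ± 0.31 (SE, adjusted p = 0.793, edgeR). Of all genes tested, 5.85% had an unadjusted p below 0.05 by edgeR, and 5.86% did not overlap with knockout higher. The most abundant genes of the list, Dmbt1, Reg3b and Reg3g, overlapped between groups. Reg3b, an antibacterial lectin, had 391, 4801 and 1763 CPM against 1835, 7508 and 3868 CPM, and Reg3g had 158, 1807 and 453 CPM against 704, 3133 and 2053 CPM. Both were lowest in knockout replicate 1, where Ang4 was highest. Dmbt1, a mucosal scavenger receptor, had 2811, 8356 and 2673 CPM against 4574, 8005 and 8026 CPM. Mmp7, the defensin-processing protease, likewise overlapped with 91.6, 65.0 and 159 CPM against 65.6, 83.8 and 117 CPM.

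Pnliprp1, a pancreatic lipase-related gene singled out after its values were seen, resembled Pla2g2f and Habp2 in its low level in knockout replicate 2. It had 412, 27.7 and 448 CPM in the knockout and 63.4, 38.3 and 73.6 CPM in the wild-type libraries. The fitted log2 fold change was 2.34 ± 0.88 (SE, adjusted p = 0.793, edgeR). Without knockout replicate 2 the log2 fold change was 2.88 with an adjusted p of 0.0234 by edgeR, the lowest over the 12 alternatives, which reached 1. Markers of pancreatic acinar cells were checked beside it. The 8 markers summed to 16.5 CPM in knockout replicate 1, with Ctrb1 at 8.42 CPM, and to at most 0.672 CPM in each of the other 5 libraries. In knockout replicate 3 the markers summed to 0.672 CPM and Pnliprp1 had 448 CPM. The part of acinar cells in the level of Pnliprp1 was not tested.

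Genes that specify Paneth cells or serve their granules gave no call. All 15 were tested and 0 passed in either direction by edgeR, with 3 above and 12 below 0, a median log2 fold change of -0.12 and 1 unadjusted p below 0.05. That gene was Xbp1, the transcription factor that maintains the secretory apparatus, with 206, 247 and 253 CPM in the knockout and 273, 387 and 318 CPM in the wild-type libraries. Its groups did not overlap and its log2 fold change was -0.47 ± 0.17 (SE, adjusted p = 0.793, edgeR). Groups that did not overlap with knockout lower made up 5.34% of the genes tested. By edgeR 0.0927% of all genes tested passed and 5.85% had an unadjusted p below 0.05, in either direction. A log2 fold change above 0 was found for 51.1% of them. Cd24a, the most abundant of this list and a surface protein of Paneth cells, had 683, 363 and 687 CPM against 538, 421 and 507 CPM.

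Signals that Paneth cells supply to stem cells gave no call. Of 6 tested genes 0 passed in either direction by edgeR and 0 had an unadjusted p below 0.05. Among all genes tested these shares were 0.0927% and 5.85%. Tgfa, an EGF receptor ligand and the most abundant, had 60.4, 70.0 and 69.7 CPM against 75.0, 55.3 and 60.6 CPM. The Notch ligands Dll1 (16.4 to 25.5 CPM over 6 libraries) and Dll4 (12.8 to 15.6 CPM) stayed within narrow ranges. Wnt11 had the smallest p of the list, with 1.87, 5.55 and 2.69 CPM against 6.43, 9.12 and 3.19 CPM and a fitted value of -0.89 ± 0.52 on the log2 scale (SE, adjusted p = 0.804, edgeR), which was -1.45 with knockout replicate 2 omitted and -0.51 with wild-type replicate 2 omitted.

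Markers of other cell types are given beside the members. The 10 goblet cell markers, which matter for Itln1, summed to 5916, 9147 and 4831 CPM in the knockout and 7063, 7738 and 8580 CPM in the wild-type libraries, with 0 passing in either direction by edgeR, 0 at an unadjusted p below 0.05, and none at 0 counts. The 8 macrophage markers, which matter for Lyz1 through Lyz2, summed to 174, 162 and 253 CPM against 123, 185 and 212 CPM. That sum was highest in knockout replicate 3, as Lyz1 was. The 9 tuft cell markers summed to 293, 221 and 313 CPM against 290, 188 and 251 CPM. Of 8 tested tuft cell markers all 8 had a log2 fold change above 0 (median 1.01), 5 had groups that did not overlap, with knockout higher, and 0 passed in either direction by edgeR, with 5 at an unadjusted p below 0.05. Rgs13, a tuft cell regulator of G protein signalling, had 8.95, 8.95 and 8.18 CPM against 4.16, 2.86 and 4.23 CPM, with a fitted log2 difference of 1.21 (adjusted p = 0.429, edgeR). The 8 mast cell markers summed to 687, 475 and 253 CPM against 218, 85.0 and 451 CPM, and the sums overlapped between groups and were highest in knockout replicate 1, as Ang4 was. All 8 mast cell markers had a log2 fold change above 0 (median 1.04), 2 of them (Mcpt4 and Cma1) had knockout libraries all above the wild-type libraries, and 0 passed in either direction by edgeR, with 2 at an unadjusted p below 0.05. Of all genes tested, 51.1% had a log2 fold change above 0 and 5.86% did not overlap, with knockout higher. By edgeR 5.85% of them had an unadjusted p below 0.05 in either direction. The part of any of these cell types in the levels of the members was not tested.

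The genes whose pattern over the 6 libraries lay nearest to Ang4 were Igkv4-90, an immunoglobulin variable gene, Ccn2, a matrix-associated growth factor gene, and Adam12, a metalloprotease gene. Likeness was the mean absolute difference of log2(CPM + 0.5), each gene centred on its own mean, and it was 0.34, 0.46 and 0.50. Igkv4-90 had 7.51, 0.726 and 3.41 CPM in the knockout and 0.28, 0.126 and 0.364 CPM in the wild-type libraries. Its wild-type levels rest on 9, 4 and 13 counts and lie below the added 0.5, which weighs on its likeness. Ccn2 had 34.1, 12.2 and 20.9 CPM in the knockout and 5.96, 3.84 and 13.2 CPM in the wild-type libraries. The genes nearest to Lyz1 were Tmtc1 (0.17), Gm12505 (0.17) and Rdx (0.18), none of them a Paneth cell gene of the lists used here. Rdx, which encodes the membrane linker radixin, had 18.7, 20.5 and 33.2 CPM against 13.4, 13.0 and 17.0 CPM.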

How the data were processed

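For each library the authors deposited a table of whole-number counts per Ensembl gene. The submitters' processing notes name TopHat2 2.1.0, HTSeq 0.6.1 and mm10. Whether counting used strand, how multiply aligned reads were handled and which annotation was used is not given there. Symbols were found for 45143 of 46078 genes, and starts are written from 1. The 10 members, the gene lists and the tests were chosen with earlier results of these data known.

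Groups and replicate numbers came from the sample titles. Counts were filtered with filterByExpr (17254 genes), scaled by TMM and tested with edgeR 4.0.16 in R 4.3.3 (robust quasi-likelihood F-test, Benjamini-Hochberg over all genes). SE is the log2 fold change over the square root of F. The fit was tested on simulated data. Each library is 1 mouse. Alternatives were DESeq2 1.42.0, RLE factors, library size alone, no filter, at least 1 CPM in 3 libraries, a replicate block and each mouse left out. Copies were sought with BLAST 2.17.0 in GENCODE M21 transcripts.

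Named were the members, in each Paneth list the 4 most abundant genes and that with the smallest p, in other lists the most abundant and that with the smallest p, and the 3 genes nearest to Ang4 and to Lyz1. Pla2g2a, Mmp7, Lgr5, Pnliprp1, further genes of the marker lists, the less similar relatives of members and the α-defensins at 0 in some mice fall outside this rule and were chosen after their values were seen. Not every gene under the rule is printed.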

Additional observations from a re-analysis of the deposited data

How the results depend on the processing

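The count of 16 genes called over all genes was 147 with DESeq2 and ranged from 9 to 41 when single mice were left out (omitting knockout replicate 1 gave 9, knockout replicate 3 gave 10, wild-type replicate 2 gave 11, wild-type replicate 3 gave 29 and knockout replicate 2 gave 41). The number of members called was 1 with DESeq2, which was Ang4, and 0 in each of the other 11 alternatives. The median of the members stayed above 0 in all 12 alternatives, from 0.16 to 0.73. Ang4, Itln1, Lyz1, Defa24 and Mptx2 kept a log2 fold change above 0 in all 12. Defa17 ranged from 0.00 to 0.95. The remaining 4 turned negative with a mouse left out, and the cause was not tested. Pla2g2f ranged from -0.13 (knockout replicate 3 omitted) to 0.98 (knockout replicate 2 omitted). Habp2 ranged from -0.68 to 0.55 over the same omissions, and was -0.24 with wild-type replicate 2 omitted and -0.26 with the replicate block. Nupr1 ranged from -0.21 (knockout replicate 1 omitted) to 0.22, and was -0.13 with wild-type replicate 1 omitted. Guca2b ranged from -0.13 (wild-type replicate 2 omitted) to 0.55. The replicate block gave 14 genes, all among the 16, and 0 members. With the block 1633 genes had an unadjusted p below 0.05 by edgeR, against 1010 without it. Deviations of same-numbered libraries correlated at 0.218, 0.273 and 0.081, all above 0. Differently numbered libraries correlated from -0.297 to 0.179. The 0.179, of knockout replicate 3 with wild-type replicate 1, exceeded the 0.081 of replicate 3 with its own number. The numbers come from titles alone, so they were not taken to pair the mice. A structure shared by same-numbered libraries was not tested.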
